A study of Mus musculus with 23 samples.

Results

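Interferon response genes are genes whose RNA rises when a cell meets an interferon. The set described here holds 43 mouse genes, listed by symbol, of 54838 genes in the count table, and each was found by the Ensembl ID that carries its symbol. All 43 had counts, and 40 passed the filter on low counts and could be tested. Oas1a, Oas1g and Oas3 did not pass it. The levels come from RNA sequencing of liver of C57BL/6J mice, a common inbred strain, that had received a recombinant secreted protein or vehicle. The proteins of batch 2 were EPDR1, a relative of fish ependymin, FCN2, a ficolin that starts the lectin pathway of complement, and FSTL3, which binds activins, with 4 libraries each. In batch 1 the protein was LBP, the plasma carrier of lipopolysaccharide, with 3 libraries. Each batch had 4 vehicle libraries of its own. Mice received 3 injections of 1 µg per g body weight, 1 day apart. The labels state neither the age nor the sex of the mice, nor whether each library came from a separate animal, so p-values measure the spread between these libraries, which may in part be technical.

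Type I interferons bind the receptor IFNAR, whose kinases JAK1 and TYK2 phosphorylate STAT2. A complex that holds STAT2 and IRF9 binds the interferon-stimulated response element (ISRE) in front of genes such as Isg15, Rsad2 and the Ifit and Oas families. Interferon-gamma acts through another element (GAS), and it is the stronger inducer of Irf1 and of the GTPases of the Gbp and Irg families. In the liver, hepatocytes, Kupffer cells and endothelial cells all answer interferons, and the same genes have a low tonic level in animals kept without infection.

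The promoters of 5 members that the results below turn on are shown because they hold, or lack, the elements just named. Each window runs from 250 bases before to 50 after the transcription start, as RefSeq gives it on GRCm38.p6, read 5′ to 3′ on the strand of the gene. Capitals mark matches to the ISRE core GAAANNGAAA on either strand, or in Irf1 a match to the GAS element TTCNNNGAA, which reads the same on both strands.
Rsad2, GRCm38 chr12:26456403-26456702, minus strand: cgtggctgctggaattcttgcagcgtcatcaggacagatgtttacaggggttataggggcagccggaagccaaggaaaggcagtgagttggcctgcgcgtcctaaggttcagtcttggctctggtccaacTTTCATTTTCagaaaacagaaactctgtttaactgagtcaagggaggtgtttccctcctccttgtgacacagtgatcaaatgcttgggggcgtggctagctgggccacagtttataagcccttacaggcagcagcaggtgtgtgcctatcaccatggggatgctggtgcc
Isg15, GRCm38 chr4:156200769-156201068, minus strand: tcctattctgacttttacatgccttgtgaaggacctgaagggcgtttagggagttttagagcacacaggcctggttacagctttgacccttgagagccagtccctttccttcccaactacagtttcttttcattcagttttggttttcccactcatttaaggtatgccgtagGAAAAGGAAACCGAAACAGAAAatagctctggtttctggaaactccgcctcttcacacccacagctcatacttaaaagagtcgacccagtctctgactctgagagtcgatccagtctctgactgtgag
Ifit1, GRCm38 chr19:34640639-34640938, plus strand: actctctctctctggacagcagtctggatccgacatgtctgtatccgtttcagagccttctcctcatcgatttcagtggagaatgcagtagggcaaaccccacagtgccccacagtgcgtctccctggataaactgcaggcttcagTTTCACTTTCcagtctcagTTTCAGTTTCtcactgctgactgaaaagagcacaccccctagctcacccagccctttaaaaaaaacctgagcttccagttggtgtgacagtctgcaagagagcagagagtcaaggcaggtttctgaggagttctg
Stat2, GRCm38 chr10:128270248-128270547, plus strand: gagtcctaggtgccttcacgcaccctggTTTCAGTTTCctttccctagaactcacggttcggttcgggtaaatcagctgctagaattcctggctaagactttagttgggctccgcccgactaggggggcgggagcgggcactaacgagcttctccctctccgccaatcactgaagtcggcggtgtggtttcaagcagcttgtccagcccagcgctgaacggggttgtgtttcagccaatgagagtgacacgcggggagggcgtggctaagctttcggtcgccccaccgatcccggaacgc
Irf1, GRCm38 chr11:53769764-53770063, plus strand: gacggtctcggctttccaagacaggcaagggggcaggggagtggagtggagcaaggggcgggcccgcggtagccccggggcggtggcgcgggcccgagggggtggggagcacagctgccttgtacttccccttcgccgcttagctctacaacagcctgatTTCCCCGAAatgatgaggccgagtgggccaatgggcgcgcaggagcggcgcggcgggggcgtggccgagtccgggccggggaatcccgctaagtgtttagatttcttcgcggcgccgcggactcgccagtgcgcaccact
The capitals in Isg15 are 3 overlapping matches. RefSeq windows were matched to 33 of the 43 members, and 18 of these (54.5%) held an ISRE core in at least 1 window, against 3.99% of 27025 genes. GAS matches were found in 8 members (24.2%), against 9.55% of all genes. A match is a stretch of letters, not a measured binding site.

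Total counts ran from 773499 (vehicle of batch 1 replicate 2) to 21892416 (vehicle of batch 2 replicate 2) per library, and 36 to 43 of the members had at least 1 count. In all 33 replicate pairs the counts differed beyond sampling noise, the least by a chi-square of 2.27 per degree of freedom. Some libraries stood apart in features of the whole library. In LBP replicate 2 the hepatocyte transcript Alb took 0.211% of counts, against 5.26% to 8.36% in the other 22 libraries. Tests that lean on this library are given with and without it, while mean levels include it. The FSTL3 libraries held 1.97% to 2.13% mitochondrial protein-coding RNA and 1.96% to 2.52% long noncoding RNA, against 7.36% to 11.8% and 0.547% to 0.761% in the vehicle of batch 2. Their clock genes also differed: Arntl had 2.43 to 5.59 CPM (counts scaled to an equal total per library, after TMM scaling of library sizes) after FSTL3 and 15.8 to 32.9 CPM in the vehicle of batch 2, but 1.14 to 4.95 CPM in the vehicle of batch 1. Effects of FSTL3 and of these differences on the members cannot be told apart.

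Members differed widely in level. On the scale of mean CPM per kb of exon over the 23 libraries, Iigp1, a GTPase that attacks the vacuoles of intracellular parasites (ENSMUSG00000054072), stood at 237, followed by Bst2 (tetherin, which holds budding viruses at the cell surface) at 79.2. Trim25, a ubiquitin ligase of RIG-I signalling, stood at 15.6, Igtp at 14.4, Ifi35 at 13.5, and both partners of an ADP-ribosylation complex, Parp9 and Dtx3l, at 12.9. The mean of Ifi35 was raised by LBP replicate 2. By the median over the 23 libraries Ifi35 stood at 8.72, below Parp9 at 12.9 and Dtx3l at 10.9. At the low end Oas3 stood at 0.116, Oas1g at 0.195 and Mx1 at 0.481. Isg15, the ubiquitin-like modifier that gives the pathway its best known marker, averaged 7.27. Its median was 4.36, and its highest library was EPDR1 replicate 1. Mx1 and Mx2 are defective genes in C57BL/6 mice, and the annotation lists Mx2 as a polymorphic pseudogene, so their values report transcript and not antiviral protein. Of the 43 members, 18 overlap another annotated gene, among them Rtp4 with Masp1, Irf9 with Rnf31, Igtp with Irgm2, and Parp9 with Dtx3l. The overlap is of whole gene spans, introns included, and Irf9 and Rnf31, and Igtp and Irgm2, lie on the same strand. The counts were made over exons without strand. Reads on an exon that a partner on the opposite strand also covers cannot be told apart. Ifit3 and Ifit3b, and Oas1a and Oas1g, are near-identical copies whose single values are uncertain.

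The most abundant member of each role gave the following levels over the groups, as mean CPM ± SD (n = 3 for LBP and 4 for each other group). Iigp1 averaged 943 ± 306 CPM after EPDR1, 996 ± 99.1 after FCN2, 430 ± 71.8 after FSTL3, 1060 ± 893 after LBP, 386 ± 62.3 in the vehicle of batch 1 and 706 ± 172 in the vehicle of batch 2. The ranges of EPDR1 and FCN2 overlapped, while all FSTL3 libraries lay below all others of batch 2. Stat2, of the complex that binds the ISRE, averaged 107 ± 39.7 CPM after EPDR1, 70.0 ± 13.4 after FCN2, 42.4 ± 1.06 after FSTL3, 54.0 ± 22.8 after LBP, 60.8 ± 11.3 in the vehicle of batch 1 and 82.3 ± 15.1 in the vehicle of batch 2. Ifih1, the cytoplasmic sensor of long double-stranded RNA, averaged 61.5 ± 26.2 CPM after EPDR1, 62.7 ± 11.3 after FCN2, 52.3 ± 5.41 after FSTL3, 22 ± 18.1 after LBP, 29.6 ± 4.18 in the vehicle of batch 1 and 52.2 ± 12.6 in the vehicle of batch 2. The proteins of batch 2 overlapped vehicle in Ifih1, and both groups of batch 1 had lower means. Trim25 ran the other way, at 68.6 ± 6.98 CPM after EPDR1, 64.7 ± 13.5 after FCN2, 89.5 ± 8.47 after FSTL3, 139 ± 28.8 after LBP, 115 ± 6.85 in the vehicle of batch 1 and 75.5 ± 15.7 in the vehicle of batch 2. Bst2, Dtx3l, Ifit1 and Oasl1, the leading members of the other roles, overlapped between every protein and its vehicle except Bst2, whose FCN2 and FSTL3 libraries lay below vehicle. The LBP means above include replicate 2. LBP replicates 2, 3 and 4 held 2080, 415 and 689 CPM of Iigp1 and 29.5, 57.9 and 74.5 CPM of Stat2. They held 1.13, 32.9 and 32.0 CPM of Ifih1 and 158, 106 and 154 CPM of Trim25.

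The median of the 40 tested members, as log2 CPM minus the mean of the same batch's vehicle libraries, summarises each library. It was 0.91 in EPDR1 replicate 1, the highest of all 23 libraries, and -0.33, 0.26 and 0.00 in EPDR1 replicates 2, 3 and 4. FCN2 libraries ran from -0.23 to 0.19. FSTL3 libraries stood at -0.40, -0.36, -0.32 and -0.49 (mean -0.39 ± 0.07 SD, n = 4), while the median of all genes in them was 0.07 to 0.08. The vehicle libraries of batch 2 stood at -0.07, -0.41, 0.35 and 0.19, so FSTL3 libraries lay low and close together but overlapped vehicle replicate 2. LBP replicates 2, 3 and 4 stood at -0.51, 0.13 and 0.37, with a median over all genes of -0.40 in replicate 2, and the vehicle of batch 1 ran from -0.22 to 0.25.

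**Figure D1:**
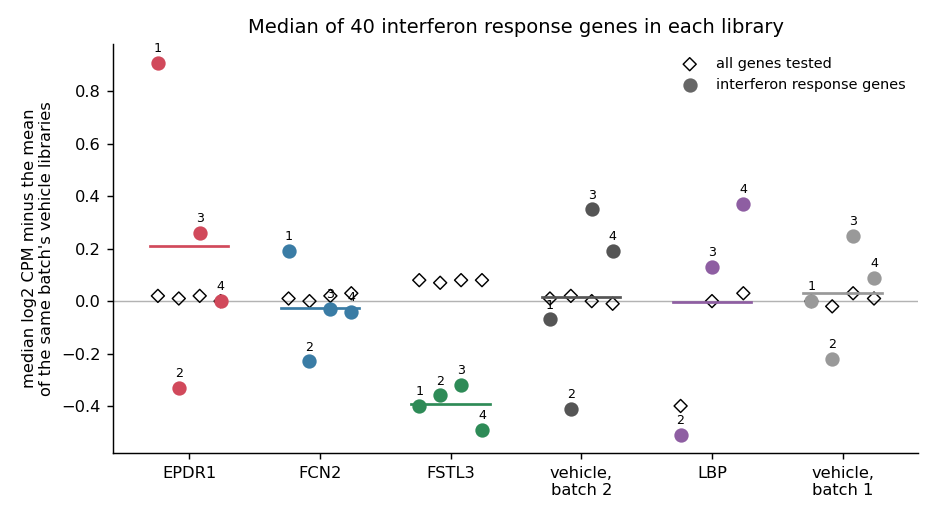
Median over 40 interferon response genes (filled circles, numbered by replicate) and over all genes tested (open diamonds) in each library, as log2 CPM minus the mean of the vehicle libraries of the same batch; horizontal lines are group means. EPDR1 replicate 1 stands at 0.91, and the 4 FSTL3 libraries lie between -0.49 and -0.32.

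After EPDR1, no member passed against the vehicle of batch 2 (0 of 40 by edgeR, where 0.0% of all 11969 genes passed; 7 had an unadjusted p under 0.05 by edgeR, and DESeq2 called 0). The members with the smallest p were Rsad2, Mx1, Mx2 and Cmpk2. Rsad2 (viperin, an antiviral enzyme; ENSMUSG00000020641, chromosome 12, 26442746 to 26456452) had 363, 16, 27.8 and 26.2 CPM in EPDR1 replicates 1 to 4, against 11, 8.10, 22.8 and 16.3 CPM in the vehicle of batch 2 (log2 fold change 2.97 ± 0.76 SE, edgeR adjusted p = 0.937). Replicate 1 alone was high, and the other 3 EPDR1 libraries overlapped vehicle. Cmpk2, the neighbour of Rsad2 on chromosome 12 and a nucleotide kinase, had 36.1, 5.77, 9.98 and 7.92 CPM after EPDR1, against 6.97, 4.32, 9.96 and 6.25 CPM in vehicle (1.22 ± 0.41, edgeR adjusted p = 1.0). Again a single library stood out. Mx1 had 8.83, 0.961, 2.42 and 4.48 CPM after EPDR1, against 1.99, 0.774, 0.830 and 1.74 CPM in vehicle (1.84 ± 0.53, edgeR adjusted p = 0.958). Mx2 had 45.1, 15.4, 26.3 and 16.2 CPM after EPDR1, against 9.71, 10.6, 20.3 and 13.2 CPM in vehicle (0.99 ± 0.31, edgeR adjusted p = 1.0). In both Mx genes replicate 1 was the highest of the 8 libraries and the groups overlapped.

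The same library was high across most of the set. EPDR1 replicate 1 was singled out after its values were seen, so what follows describes 1 library and carries no test. It had the highest level of the 16 libraries of batch 2 in 34 of 40 members, against 7.13% of all genes. Its level was more than 2 times the mean of the other 3 EPDR1 libraries in 17 members (42.5%), against 5.26% of all genes, and the median ratio was 1.86 for members and 0.996 for all genes. All 43 members summed to 3224 CPM in it, and to 1184 to 2068 CPM in the other 22 libraries, without TMM scaling. The library also differed from EPDR1 replicates 2 to 4 outside the set: long noncoding RNA took 1.09% of counts in replicate 1, against 0.594% to 0.737%, mitochondrial protein-coding RNA 13%, against 9.58% to 10.3%, and Alb 5.26%, against 5.72% to 8.07%. The part of these differences in the members' levels was not tested.

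**Figure D2:**
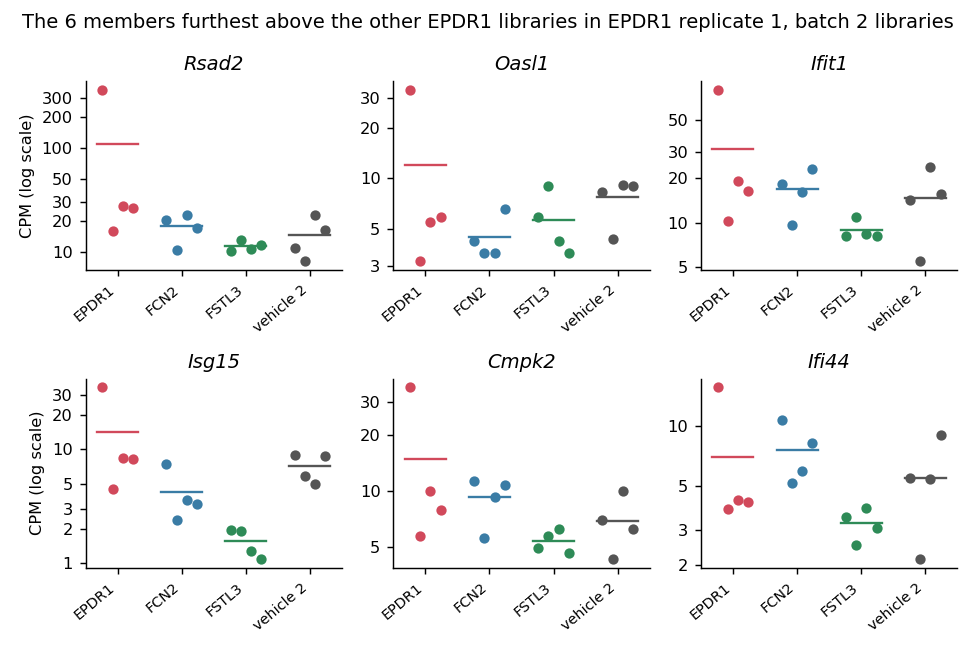
CPM (log scale) of Rsad2, Oasl1, Ifit1, Isg15, Cmpk2 and Ifi44 in the 16 libraries of batch 2, replicates 1 to 4 from left to right within each group; lines are group means and vehicle 2 is the vehicle of batch 2. EPDR1 replicate 1 is the highest library in each panel, at 363 CPM for Rsad2 and 15.7 CPM for Ifi44.

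Ratios in this library differed within each role. Among the effectors, Eif2ak2 had a ratio of 1.42, Bst2 of 1.36 and Ifi35 of 1.25. Oasl1, of the oligoadenylate synthetase family and in mice an inhibitor of Irf7 translation, had 33.6 CPM in replicate 1 and 3.20 to 5.86 CPM in the other EPDR1 libraries, a ratio of 6.95. Ifit1, which binds viral RNA caps, had 80.0 against 10.2 to 19.1 CPM (ratio 5.23), and Ifit3b had a ratio of 3.61, Ifit3 of 2.78 and Ifit2 of 1.59. Isg15 had 35.3 against 4.48 to 8.47 CPM (ratio 4.99; ENSMUSG00000035692, chromosome 4, 156199424 to 156200818). Usp18, which removes Isg15 from proteins and damps the receptor, had 26.5 against 7.05 to 13.3 CPM. In all of these genes replicate 1 was the highest library of batch 2. Among the sensors, Dhx58 (LGP2) had a ratio of 3.00, Zbp1, a sensor of Z-form nucleic acid, 2.08, Ifih1 (MDA5) 1.86 and Ddx58 (RIG-I) 1.79. Among the transcription factors, Stat2 had 164 against 71.7 to 96.5 CPM (ratio 1.86), while Irf7 had a ratio of 1.72, Irf9 of 1.35 and Irf1 of 1.27. The GTPases ran from 0.764 for Gbp2, which was lower in replicate 1, to 2.45 for Gbp7, with Irgm1 at 1.58 and Iigp1 at 1.5. Trim25 (1.09) and Parp9 (1.02) had ratios near 1. The 6 members in which another library was higher were Dtx3l, Sp100, Irf1, Trim25, Parp9 and Gbp2. Around the threshold of 2, Zbp1 lay just inside at 2.08 and Parp14 (1.98) and Rtp4 (1.95) just outside. The 3 untested OAS members were also highest in this library, at 3.44 CPM for Oas1a, 2.70 for Oas1g and 2.21 for Oas3.

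**Figure D3:**
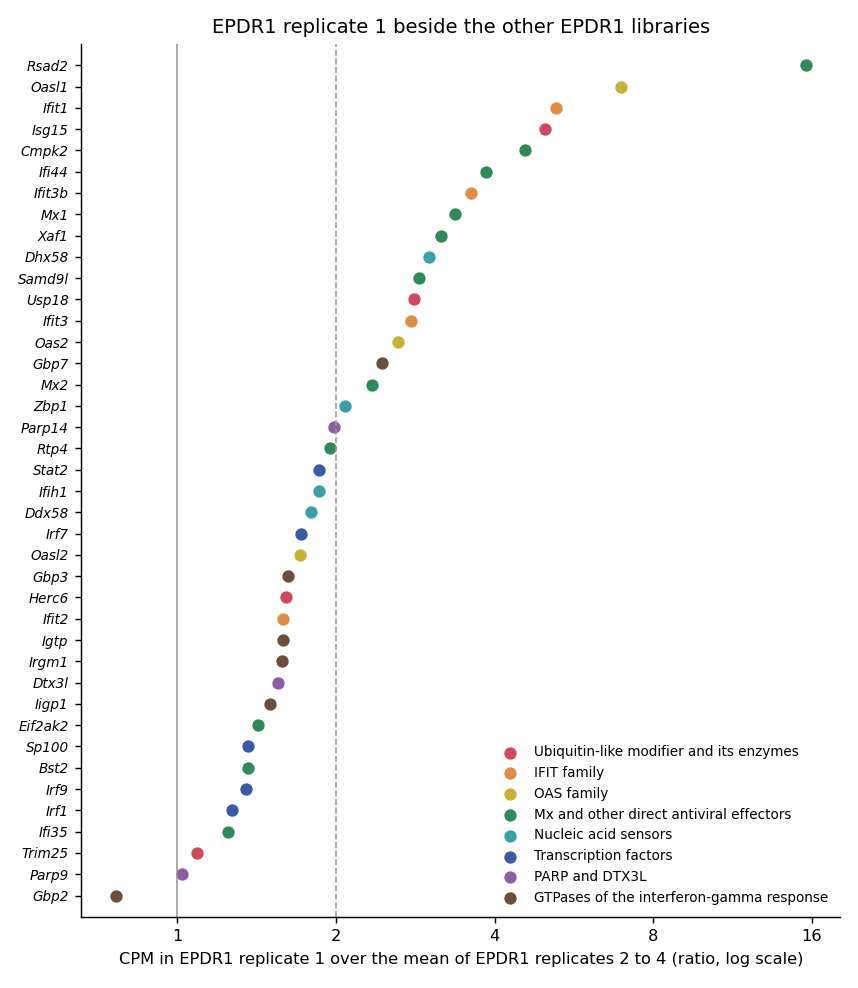
Ratio of CPM in EPDR1 replicate 1 to the mean of EPDR1 replicates 2 to 4 for the 40 tested members, sorted, on a log axis and coloured by role; the solid line marks equal levels and the dashed line a ratio of 2. Rsad2 stands at 15.6 and Gbp2 at 0.764.

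Promoters of the type shown above were found on both sides. An ISRE core lay in 9 of the 14 matched members with a ratio over 2, untested ones included (64.3%), and in 9 of the other 19 (47.4%); a GAS match lay in 2 (14.3%) and 6 (31.6%). Rsad2, Isg15 and Ifit1 each held at least 1 ISRE core, while Oasl1 and Cmpk2 held none in this window. Irf1, whose ratio was 1.27, held a GAS match and no ISRE core.

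A separate list of 45 interferon-stimulated genes, of which 43 were tested, was read in the same way. EPDR1 replicate 1 had the highest level of the 16 libraries in 17 of 43 and a ratio over 2 in 8, with a median ratio of 1.41. Over all genes it was highest in 7.13% and had a ratio over 2 in 5.26%, with a median ratio of 0.996. Ratios in the list ran from 0.8 for Ifitm2 to 6.52 for Cxcl10, and the genes named next had the largest. Cxcl10, a chemokine that draws T cells, had 24.8 CPM against 2.41 to 5.14 CPM in the other EPDR1 libraries. The helicase Ddx60 had 20.4 against 4.80 to 6.54 CPM, and Gbp9 had 11.5 against 2.72 to 5.17 CPM. Of 12 interferon genes themselves, 10 had no count in any library, and the list summed to 0.245 CPM in EPDR1 replicate 1, against 0.0 to 0.415 CPM in the vehicle of batch 2. Of the marker lists of other cell types, those of Kupffer cells (310 CPM, against 195 to 508 CPM in the vehicle of batch 2), B cells (1.47, against 0.819 to 3.82) and neutrophils and monocytes (16.2, against 5.48 to 19.1) lay within the vehicle range. So did those of sinusoidal endothelium (278, against 223 to 281) and hepatocytes (95500, against 95200 to 108000). The lists of T and NK cells (5.64, against 2.28 to 4.73) and plasmacytoid dendritic cells (46.1, against 22.8 to 32.6) lay above it. The T and NK cell markers were too low to test. The plasmacytoid list, with 3 of 5 genes tested, includes the kallikrein Klk1. Its sum was also above vehicle in other groups, at 37.9 to 54.1 CPM after FSTL3 and up to 42.1 CPM after FCN2. The part of these lists in the result was not tested. Without replicate 1 the median log2 fold change of the members after EPDR1 was -0.08 over 39 tested members, against 0.30 with it, and 0 members had an unadjusted p under 0.05 by edgeR.

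After FSTL3, 9 of 40 members were lower than in the vehicle of batch 2 and 0 were higher (22.5% lower, against 16% of all genes called lower and 39.2% called in either direction). The 9 were Zbp1, Rtp4, Isg15, Stat2, Irf1, Xaf1, Irf9, Irgm1 and Mx2. In all, 30 of the 40 fold changes were negative, and the median was -0.43, against 0.06 for all genes. In 11 members (27.5%) every FSTL3 library lay below every vehicle library, as was so for 23.8% of all genes, and in 3 (Ddx58, Gbp7 and Parp14; 7.5%) every FSTL3 library lay above, as was so for 29.9% of all genes.

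**Figure D4:**
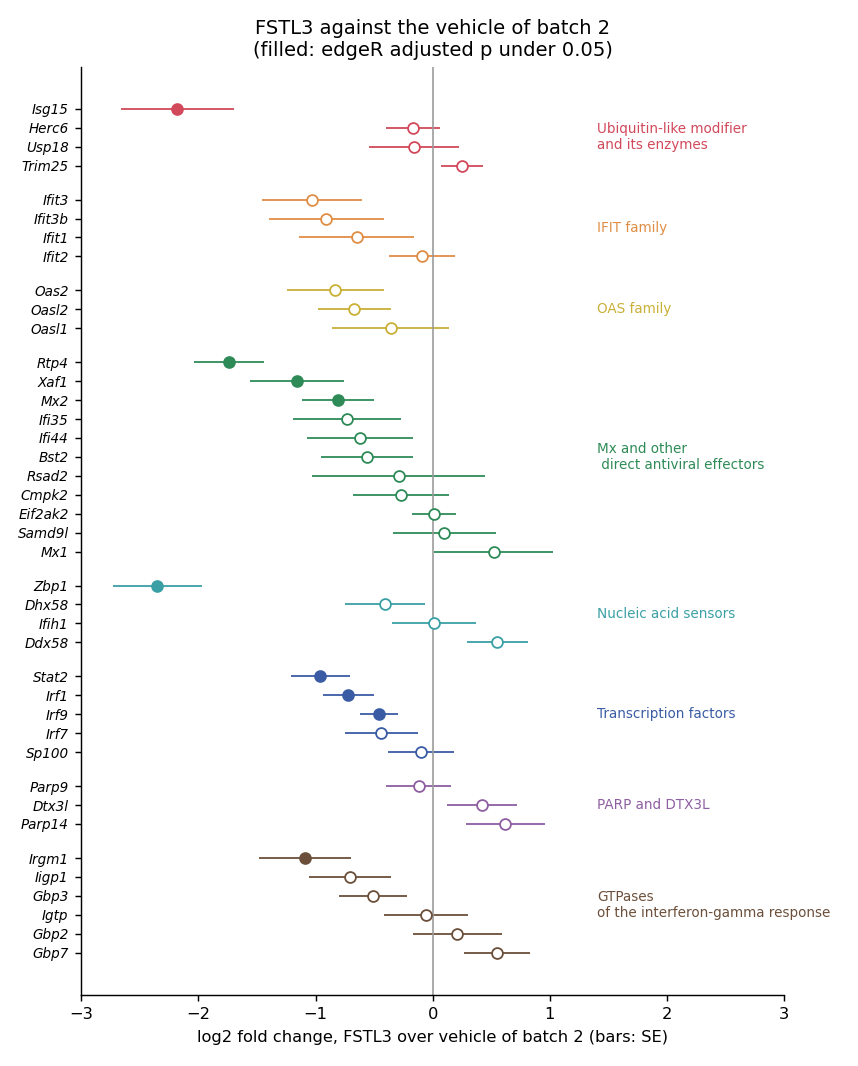
Log2 fold change of FSTL3 over the vehicle of batch 2 with its SE for the 40 tested members, grouped by role; filled points passed edgeR's test at an adjusted p under 0.05. The filled points run from Zbp1 (-2.35) to Irf9 (-0.46), and no point to the right of 0 is filled.

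Among the sensors, Zbp1, which triggers necroptosis on Z-form nucleic acid (ENSMUSG00000027514, chromosome 2, 173206612 to 173218923), had 1.65, 2.69, 2.89 and 1.67 CPM after FSTL3, against 11, 6.87, 19.9 and 10.1 CPM in vehicle. All FSTL3 libraries lay below all vehicle libraries (log2 -2.35 ± 0.38, edgeR adjusted p = 4.15e-05). The other sensors did not pass: Dhx58 stood at -0.41 ± 0.34, Ifih1 at 0.01 ± 0.36, and Ddx58 at 0.55 ± 0.26 (edgeR adjusted p = 0.358, 0.982 and 0.104). In the ubiquitin-like group Isg15 had 1.93, 1.91, 1.27 and 1.08 CPM after FSTL3, against 8.96, 5.87, 4.98 and 8.68 CPM in vehicle, again without overlap (-2.18 ± 0.48, edgeR adjusted p = 0.00104). These levels rest on 13 to 22 counts per FSTL3 library and 12 to 129 per vehicle library. Its enzymes Usp18 (-0.16 ± 0.38), Herc6 (-0.17 ± 0.23), the mouse ligase that conjugates Isg15, and Trim25 (0.25 ± 0.18) did not pass.

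Of the 5 transcription factors, 3 fell, among them 2 subunits of the complex that binds the ISRE. Stat2 (ENSMUSG00000040033, chromosome 10, 128270559 to 128292849) had 41.7, 42.2, 43.9 and 41.7 CPM after FSTL3, against 64.7, 97.6, 91.8 and 75.0 CPM in vehicle (-0.96 ± 0.25, edgeR adjusted p = 0.0042). Irf9 had 27.5, 26.1, 31.3 and 25.1 CPM, against 37.4, 35.0, 42.8 and 36.1 CPM in vehicle (-0.46 ± 0.16, edgeR adjusted p = 0.0314). Irf1, the target of interferon-gamma whose GAS match is shown above, had 30.7, 25, 26.7 and 24.1 CPM, against 32.6, 58.2, 49.0 and 35.0 CPM in vehicle (-0.72 ± 0.22, edgeR adjusted p = 0.0104). In all 3 the groups did not overlap. Irf7 (-0.44 ± 0.31), the amplifier of type I interferon, and the nuclear body gene Sp100 (-0.10 ± 0.28) did not pass.

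The antiviral effectors split. Rtp4, a chaperone of G protein-coupled receptors that interferon induces, had 7.07, 6.78, 8.50 and 5.84 CPM after FSTL3, against 17.2, 14.4, 29.9 and 35.4 CPM in vehicle (-1.74 ± 0.30, edgeR adjusted p = 9.46e-05). Xaf1, an antagonist of the apoptosis inhibitor XIAP, had 1.84, 3.74, 4.97 and 2.58 CPM, against 6.97, 3.37, 12 and 9.37 CPM in vehicle (-1.16 ± 0.40, edgeR adjusted p = 0.0266). Mx2 had 6.43, 9.21, 8.41 and 5.84 CPM, against 9.71, 10.6, 20.3 and 13.2 CPM in vehicle (-0.81 ± 0.31, edgeR adjusted p = 0.0449). Rtp4 and Mx2 did not overlap between the groups, while Xaf1 did through vehicle replicate 2. The other 8 of this group ran from -0.73 for Ifi35 to 0.52 for Mx1, with Rsad2 at -0.29 ± 0.74, Bst2 at -0.56 ± 0.39 and Eif2ak2 (PKR) at 0.01 ± 0.19. None of the 4 Ifit and 3 tested Oas members passed, although all 7 fold changes were negative, Ifit3 at -1.03 ± 0.43 (edgeR adjusted p = 0.0612) and Oas2 at -0.83 ± 0.41 (edgeR adjusted p = 0.112).

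Of the 6 GTPases, Irgm1, a regulator of the Irg family and of autophagy, fell. It had 45.3, 41.9, 49.7 and 34.8 CPM after FSTL3, against 90.9, 72.6, 116 and 86.8 CPM in vehicle (-1.09 ± 0.39, edgeR adjusted p = 0.0317). Iigp1, the most abundant member, had 441, 471, 483 and 326 CPM, against 648, 529, 939 and 708 CPM in vehicle, and did not pass with all libraries (-0.71 ± 0.35, edgeR adjusted p = 0.107). Neither gene overlapped between the groups. Gbp7 (0.55 ± 0.28) and Gbp2 (0.21 ± 0.38) had positive values. The PARP group had no call, with Parp14 at 0.62 ± 0.34, Dtx3l at 0.42 ± 0.30 and Parp9 at -0.12 ± 0.28.

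**Figure D5:**
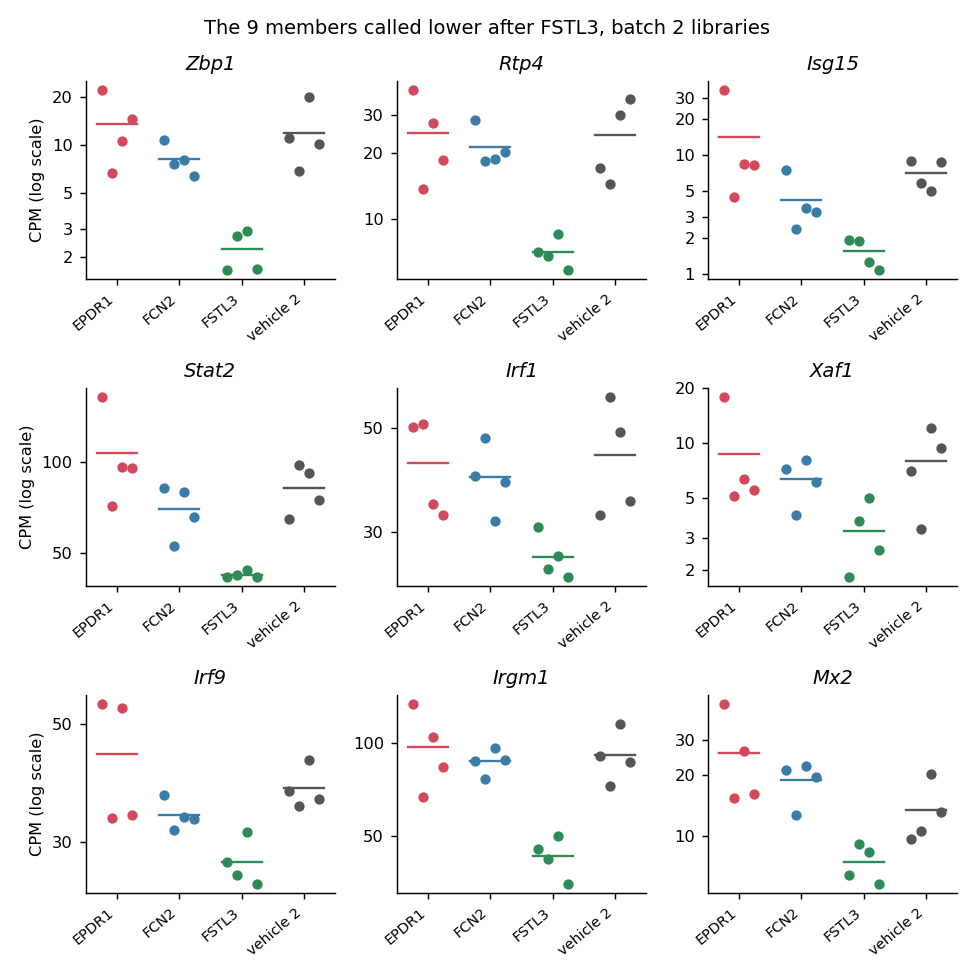
CPM (log scale) of the 9 members called lower after FSTL3 in the 16 libraries of batch 2, replicates 1 to 4 from left to right within each group; lines are group means and vehicle 2 is the vehicle of batch 2. FSTL3 and vehicle do not overlap in 8 of the panels; in Xaf1, vehicle replicate 2 (3.37 CPM) lies among the FSTL3 libraries.

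Zbp1, Rtp4, Isg15 and Stat2 were called lower in all 17 alternative fits that kept the vehicle of batch 2 as the control, and Irf1 in 16, all but that without vehicle replicate 2. Xaf1 was called in 13, Irf9 in 12 and Irgm1 in 10 of 17, and Mx2 in 10 of 16. Without LBP replicate 2, which widens the shared estimate of spread, 13 of 41 members were lower and 4 higher (25.4% and 31.3% of all genes). The members called lower then also included Iigp1 (-0.72), Ifi35 (-0.73), Bst2 (-0.56) and Oas1a (-1.21), and those higher were Ddx58, Gbp7, Parp14 and Dtx3l. Fold changes after FSTL3 rose with exon length (Spearman rho 0.42 over 40 members and 0.458 over all genes, which are not independent replicates). With each library's trend on exon length removed, 10 members were lower (12.2% of all genes): Mx2 was lost (-0.70, edgeR adjusted p = 0.0927), Isg15 stood at -1.31 (edgeR adjusted p = 0.041), and Oasl2 and Herc6 were added. Several members that did not pass moved with this trend: Bst2 changed sign, to 0.27 (edgeR adjusted p = 0.6), Ifi35 stood at -0.21 and Parp14 at 0.07, so their values of -0.56, -0.73 and 0.62 with the trend in place depend on it.

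The vehicle of batch 1 had clock gene levels nearer to those of FSTL3, and with it as the control 2 members were called lower (13.2% of all genes were) and 3 higher (18.7% of all genes). Both lower ones belonged to the 9, Zbp1 (-1.76 ± 0.39, edgeR adjusted p = 0.0014) and Rtp4 (-1.05 ± 0.31, edgeR adjusted p = 0.013). Isg15 stood at -1.17 ± 0.53 (edgeR adjusted p = 0.0953), Stat2 at -0.53, Irf9 at -0.39, Irf1 at -0.38, Xaf1 at -0.35, Irgm1 at -0.21 and Mx2 at 0.25, none of them called. Those higher were Gbp7, Ddx58 and Eif2ak2. This comparison crosses the batches.

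Gene lists around the pathway and of cell types were read in the same libraries. For comparison, 16% of all genes were called lower after FSTL3 and 23.2% higher. The receptor and sensor lists below had no larger share in either direction. Of 14 tested receptor and JAK-STAT genes, 2 were lower after FSTL3, the inhibitor Socs3 (-1.62 ± 0.43) and the receptor chain Il10rb (-0.66 ± 0.24), and 1 was higher, the interferon receptor chain Ifnar1 (44.9 ± 2.76 CPM after FSTL3 and 24.7 ± 5.61 CPM in vehicle; 0.85 ± 0.23, edgeR adjusted p = 0.00643). Of 17 tested sensor and adaptor genes upstream of interferon, Tlr4 (2.06 ± 0.43) and Nfkb1 (0.39 ± 0.14) were higher, and the adaptor Myd88 (-1.09 ± 0.27) and the kinase Ikbke (-0.66 ± 0.24) lower. The separate list of interferon-stimulated genes had 15 of 43 lower and 2 higher, with a median of -0.37. The membrane protein Ifitm3, which blocks viral entry, had 85.4 ± 10.4 CPM after FSTL3 and 289 ± 52.2 CPM in vehicle (-1.76 ± 0.22), and the exonuclease Isg20 stood at -2.42 ± 0.41, Nmi at -1.01 ± 0.18 and the lectin Lgals9 at -1.47 ± 0.29. The calls named here passed by edgeR at an adjusted p of 0.0333 or less. Of the interferon genes, Ifnk had 14 to 24 counts in each FSTL3 library and at most 1 in any other. It lies within the span of Mob3b on the opposite strand, whose counts were 501 to 630 after FSTL3 and 91 to 762 in the vehicle of batch 2, so its reads cannot be assigned to it.

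Cell type markers differed beside these genes. Of 11 tested Kupffer cell markers 5 were lower after FSTL3, and the list summed to 178 to 190 CPM, against 195 to 508 CPM in vehicle. The neutrophil and monocyte genes S100a8 and S100a9 were lower, with a list sum of 1.74 to 3.25 CPM against 5.48 to 19.1 CPM. Of 10 sinusoidal endothelial markers 4 were higher, with a sum of 538 to 654 CPM against 223 to 281 CPM, and 4 of 10 hepatocyte markers were lower. Of the plasmacytoid dendritic cell list Ccr9 was higher (4.52 ± 1.26 CPM after FSTL3 and 0.752 ± 0.236 CPM in vehicle). T, NK and B cell markers were too low to test, the sum of either list being at most 5.64 CPM in the libraries of batch 2. In bulk tissue, fewer cells of a type and less RNA per cell cannot be told apart, and the part of these differences in the members' levels was not tested.

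Between the proteins of batch 2, members were lower after FSTL3 than after EPDR1 in 21 of 40 cases and higher in 0 (52.5%, against 18% of all genes called lower). Without LBP replicate 2, 27 of 41 were lower (65.9%, against 26.6% of all genes). In that fit 4 were higher, Trim25, Ddx58, Parp14 and Dtx3l (9.76%, against 31.9% of all genes). Without EPDR1 replicate 1, 9 of 39 were lower (23.1%, against 15.7% of all genes) and 2, Gbp7 and Ddx58, were higher (5.13%, against 21.8% of all genes). The 9 were Zbp1 (-2.24), Isg15 (-2.18), Rtp4 (-1.5), Mx2 (-1.37), Oas2 (-1.24), Stat2 (-1.05), Iigp1 (-0.96), Gbp3 (-0.87) and Irf9 (-0.55). Against FCN2, 12 of 40 were lower after FSTL3 (30.0%, against 18.4% of all genes) and Trim25 was higher (0.47 ± 0.18, edgeR adjusted p = 0.0421; 25.9% of all genes were higher). Rtp4 had 7.05 CPM on average after FSTL3 and 21.5 CPM after FCN2 (-1.62 ± 0.30, edgeR adjusted p = 0.000175). Zbp1 averaged 2.23 CPM after FSTL3 and 8.2 CPM after FCN2 (-1.89 ± 0.38, edgeR adjusted p = 0.00041). Iigp1, Mx2, Gbp3, Isg15, Herc6, Ifi44, Stat2, Irgm1, Irf1 and Oasl2 were the other 10. With the trend on exon length removed, 13 were lower than after FCN2 (17.4% of all genes) and 18 lower than after EPDR1 (14.4% of all genes). In that fit 0 were higher in either contrast (18.7% and 15.9% of all genes). Isg15 then stood at -0.71 against FCN2 (edgeR adjusted p = 0.268), and Ifit3, Ifit3b and Iigp1 were lost against EPDR1. These contrasts share the FSTL3 libraries with the one against vehicle and are not independent of it. EPDR1 and FCN2 differed in 0 of 40 members by edgeR (0.0% of all genes; 8 members had an unadjusted p under 0.05, and DESeq2 called 0), and without LBP replicate 2 in 3, all higher after EPDR1 (Oas2, Bst2 and Ifi35; 2.26% of all genes).

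After FCN2, 0 of 40 members passed by edgeR, where 0.81% of all genes did (1 member had an unadjusted p under 0.05, and DESeq2 called 0). The smallest p belonged to Herc6, with 24.2, 20.8, 28.1 and 22.4 CPM after FCN2, against 15.7, 12.4, 22.4 and 18.4 CPM in vehicle (0.50 ± 0.24, edgeR adjusted p = 0.273). Gbp2 had 9.52, 16, 5.38 and 12.5 CPM after FCN2, against 3.24, 6.33, 10.8 and 4.86 CPM (0.80 ± 0.40, edgeR adjusted p = 0.303). Oas2 stood at -0.95 ± 0.48 and Mx2 at 0.54 ± 0.32. The groups overlapped in each of these 4. Without LBP replicate 2, Bst2 (-0.65 ± 0.17, edgeR adjusted p = 0.0103) and Ifi35 (-0.58, edgeR adjusted p = 0.027) were lower, 2 of 41, against 10.1% of all genes. Bst2 had 59.9, 34.4, 49.9 and 36.7 CPM after FCN2, against 61.5, 68.7, 73.9 and 82.9 CPM in vehicle, without overlap. Of the separate list, the secreted glycoprotein Lgals3bp was lower after FCN2 (-0.83 ± 0.20, edgeR adjusted p = 0.0476).

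After LBP, 2 of 40 members were higher than in the vehicle of batch 1 (5.0%, against 6.73% of all genes), and neither call held without LBP replicate 2. Ifi35 had 190, 17.9 and 20.2 CPM in LBP replicates 2, 3 and 4, against 11.7, 10.3, 15.5 and 14 CPM in vehicle (2.4 ± 0.53, edgeR adjusted p = 0.0112). Iigp1 had 2080, 415 and 689 CPM, against 383, 324, 472 and 364 CPM in vehicle (1.46 ± 0.37, edgeR adjusted p = 0.0213). Replicate 2 was the high library in both. Without it 0 of 41 members passed by edgeR (0.727% of all genes; 2 had an unadjusted p under 0.05), with Ifi35 at 0.49 ± 0.23 and Iigp1 at 0.51 ± 0.25. Dtx3l (267, 62.5 and 86.6 CPM after LBP; 1.00 ± 0.33) and Bst2 (349, 67.0 and 44.4 CPM; 1.27 ± 0.42) did not pass (edgeR adjusted p = 0.0626 and 0.0677).

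LBP replicate 2 did not hold the members at 1 level. Of the 40, 15 lay above both other LBP libraries in it, 22 below both and 3 between. Rsad2 had 86.1 CPM in replicate 2, against 11.4 and 13.4 CPM in replicates 3 and 4, while Irgm1 had 2.27 against 52.1 and 80.7 CPM, Ifih1 1.13 against 32.9 and 32.0 CPM, and Igtp 1.13 against 37.4 and 29.6 CPM. The library held 1463037 counts, 12.4% of them from small structural RNA genes (0.189% to 0.764% in the other 22 libraries), its Kupffer cell markers summed to 1300 CPM (338 to 483 CPM in vehicle), and Klk1, a glandular kallikrein placed in the plasmacytoid list, was high in the LBP group (43.6 ± 29.9 CPM, against 0.391 ± 0.713 CPM in vehicle). The part of these in the members' levels was not tested.

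Between the vehicle libraries of the batches few members passed in the fit of all libraries, with shares no higher than those of all genes. Relative to the vehicle of batch 2, that of batch 1 had 2 of 40 members lower (Eif2ak2, -0.61 ± 0.20, and Mx2, -1.06 ± 0.35; 5.0%, against 5.41% of all genes) and 1 higher (Trim25, 0.61 ± 0.19; 2.5%, against 6.76% of all genes), by edgeR at adjusted p = 0.0472, 0.0488 and 0.0338. The 3 calls were 7.5% of members, against 12.2% of all genes. Their count became 0 without replicate 1, 2 or 4 of the vehicle of batch 1 (8.52%, 8.8% and 7.17% of all genes). It was also 0 without replicate 3 or 4 of the vehicle of batch 2 (7.73% and 7.7% of all genes). Without replicate 3 of the vehicle of batch 1 it was 1 (2.5%, against 7.27% of all genes). Fold changes were negative in 35 of 40, with a median of -0.58, against 0.00 for all genes. Mx2 had 4.24, 5.71, 8.34 and 5.54 CPM in the vehicle of batch 1, against 9.71, 10.6, 20.3 and 13.2 CPM in the vehicle of batch 2. Eif2ak2 had 18.4, 17.1, 16.5 and 12.8 CPM, against 28.6, 19, 25.7 and 26 CPM, and neither gene overlapped. Without LBP replicate 2, 8 of 41 were lower (19.5%, against 14.9% of all genes), Iigp1 (-0.87 ± 0.21), Irgm1, Ifih1, Herc6, Ifi44 and Ifi35 joining those named. In that fit 1 was higher (2.44%, against 15.4% of all genes). Batch and whatever else differed between these mice cannot be told apart.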

How the data were processed

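Liver RNA of C57BL/6J mice was sequenced in 23 libraries of 6 groups. What the authors deposited is a table of unnormalized counts per gene. Reads were aligned with STAR 2.6.0c to GRCm38, per the submitters' processing notes, and counted with featureCounts 1.6.3 over exons of Ensembl release 95, per the file headers. The command in the header sets no strand option. The deposited table also gives each gene's exon length, another value of featureCounts. All count columns were mapped to samples by their names, and groups come from the labels. Of 54838 genes, 54809 were named through GENCODE M21.

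Counts were used as deposited. The main test was the robust quasi-likelihood F test of edgeR 4.0.16 (R 4.3.3), with filterByExpr (11969 genes kept), TMM scaling and a mean per group over all 23 libraries. P-values were adjusted by Benjamini-Hochberg over all genes tested, with a threshold of 0.05. Leaving out LBP replicate 2 (12244 genes kept) lowered the common dispersion to 0.0298, against 0.0774 with it. CPM use TMM-scaled library sizes, with a prior count of 1 on the log scale. The standard error is the fold change over the root of F. DESeq2 1.42.0, other scaling and filters, fewer libraries and each replicate left out were tried.

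Named members are those that passed per protein, or the 4 with the smallest p, plus the most abundant of each role group; other lists name at most 4. The members and lists were chosen with earlier results of these data known. Replicate numbers were not taken as pairs: the deviations of same-numbered libraries correlated at -0.123 to 0.293, and 9 of 27 pairs exceeded 0.1. Depth was 773499 to 21892416 counts per library, so members with few counts have wide errors. 1 gene of the receptor and signalling list is not reported here.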

Additional observations from a re-analysis of the deposited data

Results flagged for a closer look

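In a group of 4 libraries, a value far from the other 3 relative to the range of all 4 was looked for in 24 members and in the median over the members, which made 125 comparisons. Chance alone would mark about 1 in 20 independent comparisons. These were not independent, since the 24 members were named in part from the same values and members can move together in 1 library. The marks therefore carry no test. There were 9, a total not far above that rate, 6 of them in EPDR1 replicate 1. In that library Rsad2 had 363 CPM (16 to 27.8 CPM in the other EPDR1 libraries), Ifit1 80.0 (10.2 to 19.1), Cmpk2 36.1 (5.77 to 9.98), Isg15 35.3 (4.48 to 8.47), Oasl1 33.6 (3.20 to 5.86) and Xaf1 17.9 (5.12 to 6.35). Gbp2 had 4.69 CPM in FSTL3 replicate 2 (7.72 to 8.04 in the other FSTL3 libraries), and Ifit1 had 10.9 CPM in the same library (8.08 to 8.41). Oas2 had 0.706 CPM in FCN2 replicate 4 (1.5 to 1.6 in the other FCN2 libraries). The LBP group of 3 libraries was not examined in this way.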

How the results depend on the processing

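After FSTL3 the count of members called (9) became 18 when only the compared libraries were fitted (45.0% of members, against 60.5% of all genes), 17 without LBP replicate 2 (41.5%, against 56.8%), and 5 against the vehicle of batch 1, where Mx2 took the opposite sign (0.25, edgeR adjusted p = 0.612). The directions differed. Of the 18, 14 were lower, a larger share of the 40 tested than the 28.1% of all genes. The other 4 were higher, a smaller share than the 32.4% of all genes. Leaving out 1 library at a time gave 5 to 17. The count was 5 without FSTL3 replicate 4 or vehicle of batch 2 replicate 3 (12.5% lower, against 13.4% of all genes in either fit). FCN2 against vehicle gave 0 as reported, 2 with only the compared libraries (5.41% lower, against 8.27% of all genes), and 0 to 2 on leaving out 1 library. LBP against vehicle gave 4 of 40, all higher, with DESeq2 or its size factors, where 8.3% and 8.26% of all genes were higher. It gave 0 with only the compared libraries (0.0% of all genes) and 0 to 4 on leaving out 1 library. Without LBP replicate 3 or 4 there were 4, all higher (9.76% in either fit, against 13.5% and 13.7% of all genes). Without vehicle of batch 1 replicate 1, 2 or 4 there was 1, also higher (2.5%, against 2.51%, 3.24% and 2.51% of all genes). The vehicles of the 2 batches gave 5 with DESeq2 (12.5% of members, against 17.5% of all genes) and 0 with no filter (2.11% of all genes). With only the compared libraries they gave 13 (36.1% of members, against 39.9% of all genes). Of these 13, 12 were lower (33.3% of members, against 19.2% of all genes) and 1 was higher (2.78%, against 20.7%). Leaving out 1 library gave 0 to 9 between the vehicles, where omitting any vehicle of batch 1, or replicate 3 or 4 of batch 2, left 0 or 1. On leaving out 1 library FSTL3 against EPDR1 gave 11 (28.2% of members, against 37.5% of all genes) to 31 (75.6%, against 58.6%). In such fits FSTL3 against FCN2 gave 6 (38.2% of all genes called) to 17, and EPDR1 against FCN2 0 to 3 (7.32%, against 4.73%). Of the 17 (41.5%, against 60.8%), 13 were lower (31.7%, against 26.8%) and 4 higher (9.76%, against 34%). FSTL3 against FCN2 gave 7 with no filter (16.3%, against 22.5%) and 24 with only the compared libraries (60.9% of all genes called). Of the 24, 20 were lower, a larger share of the 40 tested than the 28.5% of all genes. The other 4 were higher, a smaller share than the 32.4% of all genes. EPDR1 against vehicle stayed at 0 in every alternative. The fewest against FCN2 (6 to 8) came without FCN2 replicate 1 or 3 or FSTL3 replicate 2 or 4. With a replicate block, which the numbers do not support as pairs, 10 members were called after FSTL3, 0 after LBP and 0 between the vehicles. Of 874 values of single named members, 787 kept their side of the threshold, 69 lost a call, 17 gained one and 1 called value turned; 616 were called under neither setting, and 23 of these changed sign; the cause was not tested. The least deep libraries, LBP replicate 2 and vehicle of batch 1 replicate 2, had counts for 36 and 38 of the 43 members, so low members are measured less well in batch 1.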
